A study of Homo sapiens with 6 samples.

Results

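The IFIT and OAS families were followed on 6 Affymetrix arrays of human lymphoma cells with and without knockdown of EZH2. Members were all probe sets annotated to a single gene that was IFIT1, IFIT2, IFIT3, IFIT5, OAS1, OAS2, OAS3 or OASL, which gave 16 of 41091 single-gene probe sets and 8 of 19775 genes, with 7 probe sets for the IFIT family and 9 for the OAS family. The cells were KARPAS-422 and Pfeiffer, established lines grown from diffuse large B-cell lymphoma, which arises from mature B cells. Each line was infected with lentivirus carrying a short hairpin RNA, against human EZH2 in the shEZH2 arm and against a sequence foreign to mammals in the shNTC arm. Both arms of both lines shared the virus, polybrene at 8 µg/ml, serum at 10% and, from 2 days after infection, selection with puromycin at 1 µg/ml for 2 days, and the labels give 10 days of knockdown.

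The 4 groups were KARPAS-422 shEZH2 (2 arrays), KARPAS-422 shNTC (2 arrays), Pfeiffer shEZH2 (1 array) and Pfeiffer shNTC (1 array). Each arm used 1 hairpin sequence, so an effect of that sequence other than through EZH2 cannot be told apart from the knockdown. The KARPAS-422 arrays are called biological replicates, but separate infections are not stated, so the spread between them may be technical. Each p-value rests on that spread, drawn by limma towards the spread of other probe sets of like signal on the same arrays. All values are log2 MAS5 signals, on which a difference of 1 is a doubling of the signal, and a difference is shEZH2 minus shNTC unless stated otherwise. The level of a probe set depends on its own probes, so levels were compared between arrays and never between genes. In bulk RNA, more cells that express a gene and more of its RNA per cell cannot be told apart.

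Both families are induced by interferon. Interferon receptors signal through JAK kinases to STAT and IRF factors, which bind the interferon-stimulated response element in the promoters of these genes. IFIT proteins bind RNA whose cap or end marks it as foreign and block its translation. OAS1, OAS2 and OAS3 bind double-stranded RNA and make short oligoadenylates, which start the breakdown of RNA, whereas OASL lacks that activity and modulates RNA sensing. EZH2 is the enzyme of Polycomb repressive complex 2 and methylates histone H3 at silent genes.

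The hairpins are printed first because every comparison rests on them, with the 21 bases of the sense strand in capitals.
shEZH2: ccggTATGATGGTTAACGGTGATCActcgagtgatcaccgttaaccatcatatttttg
shNTC: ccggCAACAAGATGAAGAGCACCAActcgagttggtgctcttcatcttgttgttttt

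The promoter windows of member genes are shown because their probe sets moved together in KARPAS-422. Each window is the 250 bases before the RefSeq start (GRCh38.p14, plus strand), with matches to the core of the response element in capitals. The word searched was GAAA, any 2 bases, then GAAA, and on the other strand TTTC, any 2 bases, then TTTC, with overlapping matches allowed. RefSeq windows were at hand for IFIT1, IFIT3, IFIT5, OAS1 and OAS3, and IFIT2, OAS2 and OASL are named only.
IFIT1, chr10:89392373-89392622: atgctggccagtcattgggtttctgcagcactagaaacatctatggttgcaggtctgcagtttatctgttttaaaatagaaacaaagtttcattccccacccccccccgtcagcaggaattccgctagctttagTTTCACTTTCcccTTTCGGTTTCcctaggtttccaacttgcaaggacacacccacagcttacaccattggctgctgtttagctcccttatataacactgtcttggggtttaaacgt
IFIT3, chr10:89327747-89327996: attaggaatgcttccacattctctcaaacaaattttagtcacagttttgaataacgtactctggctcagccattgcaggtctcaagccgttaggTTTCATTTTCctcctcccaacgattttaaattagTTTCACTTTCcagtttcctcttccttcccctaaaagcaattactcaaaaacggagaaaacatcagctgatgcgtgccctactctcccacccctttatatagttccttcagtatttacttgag
IFIT5, chr10:89414318-89414567: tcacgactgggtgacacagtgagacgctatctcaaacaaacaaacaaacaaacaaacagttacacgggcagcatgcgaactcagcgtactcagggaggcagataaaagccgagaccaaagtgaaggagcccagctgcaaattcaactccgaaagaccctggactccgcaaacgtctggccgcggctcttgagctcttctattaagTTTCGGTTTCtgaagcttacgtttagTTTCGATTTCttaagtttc
OAS1, chr12:112906712-112906961: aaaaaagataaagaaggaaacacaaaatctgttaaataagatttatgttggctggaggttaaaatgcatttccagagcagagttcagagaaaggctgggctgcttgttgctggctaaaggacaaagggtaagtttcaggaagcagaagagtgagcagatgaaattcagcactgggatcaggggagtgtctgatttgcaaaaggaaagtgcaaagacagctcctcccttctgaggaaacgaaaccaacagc
OAS3, chr12:112938224-112938473: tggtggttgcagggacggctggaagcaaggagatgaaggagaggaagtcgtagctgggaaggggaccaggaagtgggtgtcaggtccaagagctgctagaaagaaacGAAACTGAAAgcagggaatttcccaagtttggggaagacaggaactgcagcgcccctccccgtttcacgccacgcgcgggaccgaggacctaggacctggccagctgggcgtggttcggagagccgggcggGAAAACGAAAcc

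The word occurred in 4 of the 5 member genes with a window, against 3.71% of the 27305 genes with a RefSeq window. Counted by window it was in 5 of 6, since IFIT3 has a second start with its own window, against 3.02% of 35116 windows. Its first base lay 116 and 103 bases before the start in IFIT1, 156 and 122 in the IFIT3 window shown, 45 and 19 in IFIT5, and 143 and 12 in OAS3. These are matches of letters, not measured binding, and the absence of a match in OAS1 says only that these letters are not in its window.

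EZH2 itself, measured by 203358_s_at, had signals of 10.52 and 10.55 in KARPAS-422 shEZH2 against 11.71 and 11.57 in shNTC, and 10.24 in Pfeiffer shEZH2 against 11.65 in shNTC. In KARPAS-422 46.3% of the control signal was left (limma adjusted p = 0.00107) and in Pfeiffer 37.6%, with no test. All arrays had the same trimmed mean signal and medians between 6.07 and 6.41 log2 units. Of the B cell markers, 6 of 6 measured lay on all 6 arrays above the overall median signal (6.21). CD79B among them rose in KARPAS-422, by 0.39 (adjusted p = 0.0212). The other 5 were not called, and differences over the 6 ran from -0.20 to 0.78. Of 7 T and NK cell markers, CD3D and CD3G lay above the overall median only in KARPAS-422, where they fell (by 0.77 and 0.64, adjusted p = 0.0114 and 0.0472). CD3E, the third kept marker, differed by -0.28 in KARPAS-422 without a call. CD2, NKG7, GNLY and KLRD1 lay above the overall median on no array. The summed signal of that list was 3919 to 4350 in KARPAS-422 shEZH2 and 6367 to 6950 in shNTC, and 225 in each Pfeiffer arm. Of the kept myeloid and plasmacytoid dendritic cell markers 0 of 3 were called, and of the fibroblast and epithelial markers 0 of 6. Of all 13036 genes 12.5% were called higher and 11.6% lower, so such small counts cannot tell these markers from other genes. The fibroblast and epithelial markers differed by -0.26 to 1.95 in KARPAS-422, and 3 lay above the overall median on all 6 arrays. As signs of RNA quality, the log2 signal of the 3′ probe set minus that of the 5′ probe set was 0.138 and 0.175 for ACTB in KARPAS-422 shEZH2 against 0.0593 and 0.0830 in shNTC, and 0.126 in Pfeiffer shEZH2 against 0.109 in shNTC. For GAPDH the KARPAS-422 arms overlapped, at -0.169 and -0.241 in shEZH2 against -0.182 and -0.158 in shNTC. The part of these markers and ratios in the results was not tested.

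In KARPAS-422, all 8 genes were higher in shEZH2 than in shNTC, by 1.67 to 4.49 log2 units, or 3.18-fold to 22.5-fold. All 16 probe sets were called higher (limma, adjusted p between 7.30e-05 and 0.0126, Benjamini-Hochberg over 25186 kept probe sets), where 12.4% of all kept probe sets were called higher and 9.1% lower. With the further demand of a difference past 1 log2 unit the members' count was again 16 of 16, against 5.48% of all kept probe sets higher and 0.778% lower. The median difference was 2.75 over the members and 0.02 over all kept probe sets. On all 16 probe sets both shEZH2 arrays lay above both shNTC arrays, which held for 34.3% of kept probe sets, and the reverse for 29.9%. The smallest distance between the arms was 1.56 log2 units, whereas replicates differed by at most 0.64 in shEZH2 and 0.60 in shNTC. The filter asked for 2 or more of the 6 arrays above the overall median, and OAS3 232666_at passed only through the KARPAS-422 shEZH2 arrays, so it had to differ. The other 15 passed without depending on those arrays.

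**Figure D1:**
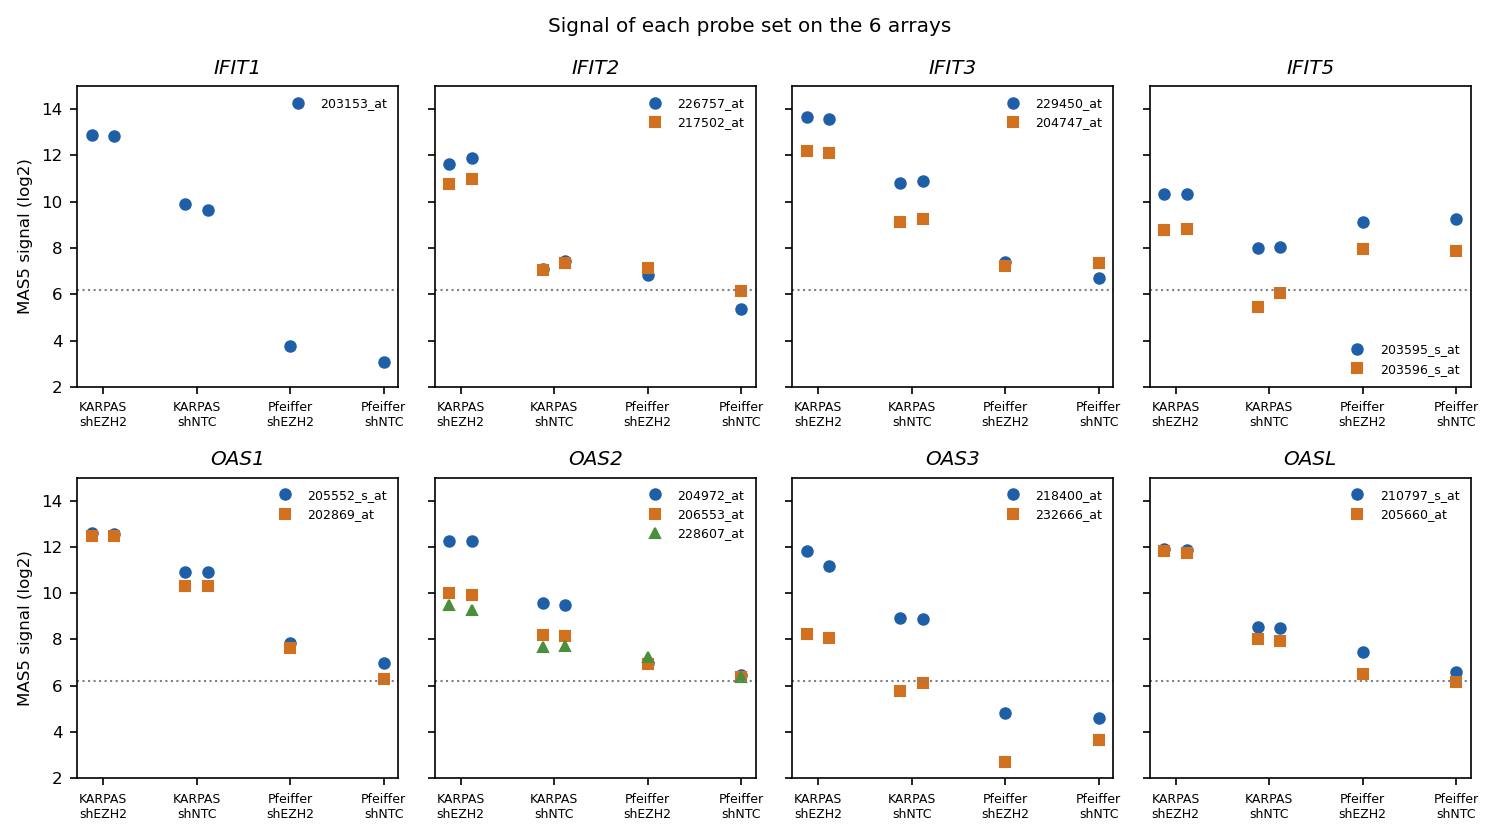
Each panel is 1 gene and each point 1 array, with the log2 MAS5 signal on the vertical axis and the 4 groups on the horizontal axis; marker shapes are probe sets and the dotted line is the overall median signal (6.21). In KARPAS-422 the shEZH2 points lie above the shNTC points in every panel, and IFIT5 is the panel in which KARPAS-422 shNTC lies below Pfeiffer.

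IFIT1, which recognises capped RNA that lacks methylation next to the cap, had signals of 12.89 and 12.83 in KARPAS-422 shEZH2 against 9.89 and 9.65 in KARPAS-422 shNTC, and 3.76 in Pfeiffer shEZH2 against 3.08 in Pfeiffer shNTC. The KARPAS-422 arms did not overlap, and both Pfeiffer arrays were dim, at percentiles 15.6 and 11.5 of their arrays. The KARPAS-422 difference was 3.09 ± 0.16 (SE, n = 2 per arm), or 8.53-fold, with a limma adjusted p of 1.32e-04.

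IFIT2, which binds RNA rich in adenine and uracil and pairs with the other IFIT proteins, was measured by 2 probe sets. On 226757_at the signals were 11.61 and 11.87 in KARPAS-422 shEZH2 against 7.07 and 7.42 in shNTC, and 6.81 in Pfeiffer shEZH2 against 5.35 in Pfeiffer shNTC. The KARPAS-422 change of 4.49 (SE 0.19, n = 2 per arm), with an adjusted p of 7.30e-05, was the largest of the 16 and ranked 36th from the top among 25186 kept probe sets. IFIT2 was also the gene with the largest Pfeiffer difference, 1.46. That size is uncertain, since the Pfeiffer shNTC signal was dim, at percentile 33.1 of its array, and alternatives gave as little as 0.75. The other probe set, 217502_at, had 10.78 and 10.97 in KARPAS-422 shEZH2 against 7.03 and 7.34 in shNTC, and 7.16 in Pfeiffer shEZH2 against 6.14 in shNTC. It was again high in KARPAS-422 shEZH2 alone: the first KARPAS-422 shNTC array lay below the Pfeiffer shEZH2 array.

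IFIT3, which binds IFIT1 and stabilises its hold on RNA, had 13.66 and 13.58 in KARPAS-422 shEZH2 against 10.79 and 10.89 in shNTC on 229450_at, and 7.38 in Pfeiffer shEZH2 against 6.71 in shNTC. On 204747_at it had 12.20 and 12.09 in KARPAS-422 shEZH2 against 9.12 and 9.26 in shNTC, and 7.24 in Pfeiffer shEZH2 against 7.34 in shNTC. The KARPAS-422 differences of the probe sets were close, 2.78 and 2.95 (adjusted p = 7.30e-05 for each). Their Pfeiffer differences were 0.67 and -0.10, so the direction in Pfeiffer depends on the probe set.

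IFIT5, which binds uncapped RNA ends and does not join the complex of the other IFIT proteins, had a different order of levels. On 203595_s_at it had 10.33 and 10.35 in KARPAS-422 shEZH2 against 7.99 and 8.05 in shNTC, and 9.14 in Pfeiffer shEZH2 against 9.26 in shNTC. On 203596_s_at the signals were 8.77 and 8.83 in KARPAS-422 shEZH2 against 5.45 and 6.05 in shNTC, and 7.98 in Pfeiffer shEZH2 against 7.88 in shNTC. Both Pfeiffer arrays thus lay between the KARPAS-422 arms on both probe sets, whose names carry the suffix for probes shared by several transcripts. The KARPAS-422 differences were 2.32 ± 0.13 and 3.05 ± 0.26 (SE, n = 2 per arm; adjusted p = 1.85e-04 and 8.62e-04).

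Among the enzymes of the OAS family, OAS1 had 12.59 and 12.57 in KARPAS-422 shEZH2 against 10.93 and 10.90 in shNTC on 205552_s_at, and 7.84 in Pfeiffer shEZH2 against 6.98 in shNTC. On 202869_at it had 12.45 and 12.47 in KARPAS-422 shEZH2 against 10.30 and 10.29 in shNTC, and 7.64 in Pfeiffer shEZH2 against 6.29 in shNTC. Replicates were within 0.03 of each other, and no arms overlapped in KARPAS-422. The differences there were 1.67 ± 0.10 and 2.16 ± 0.11 (SE, n = 2 per arm), and the first was the smallest of the 16. The lone Pfeiffer pair was 0.86 and 1.35 apart in the same direction.

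OAS2 was measured by 3 probe sets, all with the same order of groups. On 204972_at it had 12.25 and 12.27 in KARPAS-422 shEZH2 against 9.58 and 9.48 in shNTC, and 6.99 in Pfeiffer shEZH2 against 6.47 in shNTC. On 206553_at it had 10.00 and 9.92 in KARPAS-422 shEZH2 against 8.18 and 8.17 in shNTC, and 6.95 in Pfeiffer shEZH2 against 6.39 in shNTC. On 228607_at it had 9.51 and 9.28 in KARPAS-422 shEZH2 against 7.66 and 7.72 in shNTC, and 7.24 in Pfeiffer shEZH2 against 6.40 in shNTC. The size of the KARPAS-422 difference varied between probe sets, at 2.73, 1.79 and 1.71, and all 3 were called (adjusted p = 9.24e-05, 0.00108 and 0.00205).

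OAS3, the family's enzyme most responsive to long double-stranded RNA, had 11.84 and 11.20 in KARPAS-422 shEZH2 against 8.91 and 8.87 in shNTC on 218400_at, and 4.83 in Pfeiffer shEZH2 against 4.60 in shNTC. The shEZH2 replicates were 0.64 apart, the widest gap of any member, and the change came to 2.63 (SE 0.23, n = 2 per arm) with an adjusted p of 0.00101. The dim probe set 232666_at had 8.22 and 8.06 in KARPAS-422 shEZH2 against 5.77 and 6.13 in shNTC, and 2.73 in Pfeiffer shEZH2 against 3.66 in shNTC. Its KARPAS-422 difference of 2.19 (adjusted p = 0.0126) lost its call without either shEZH2 array (adjusted p = 0.130 without the first and 0.108 without the second). It was the only member probe set that lost the KARPAS-422 call under any alternative tried.

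OASL, the family member without oligoadenylate synthesis, had 11.90 and 11.85 in KARPAS-422 shEZH2 against 8.53 and 8.48 in shNTC on 210797_s_at, and 7.44 in Pfeiffer shEZH2 against 6.60 in shNTC. On 205660_at it had 11.80 and 11.76 in KARPAS-422 shEZH2 against 8.00 and 7.94 in shNTC, and 6.50 in Pfeiffer shEZH2 against 6.16 in shNTC. Both probe sets stood clear of their controls in KARPAS-422, by 3.37 ± 0.13 and 3.81 ± 0.15 (SE, n = 2 per arm; adjusted p = 7.30e-05 for each), or 10.3-fold and 14.0-fold.

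**Figure D2:**
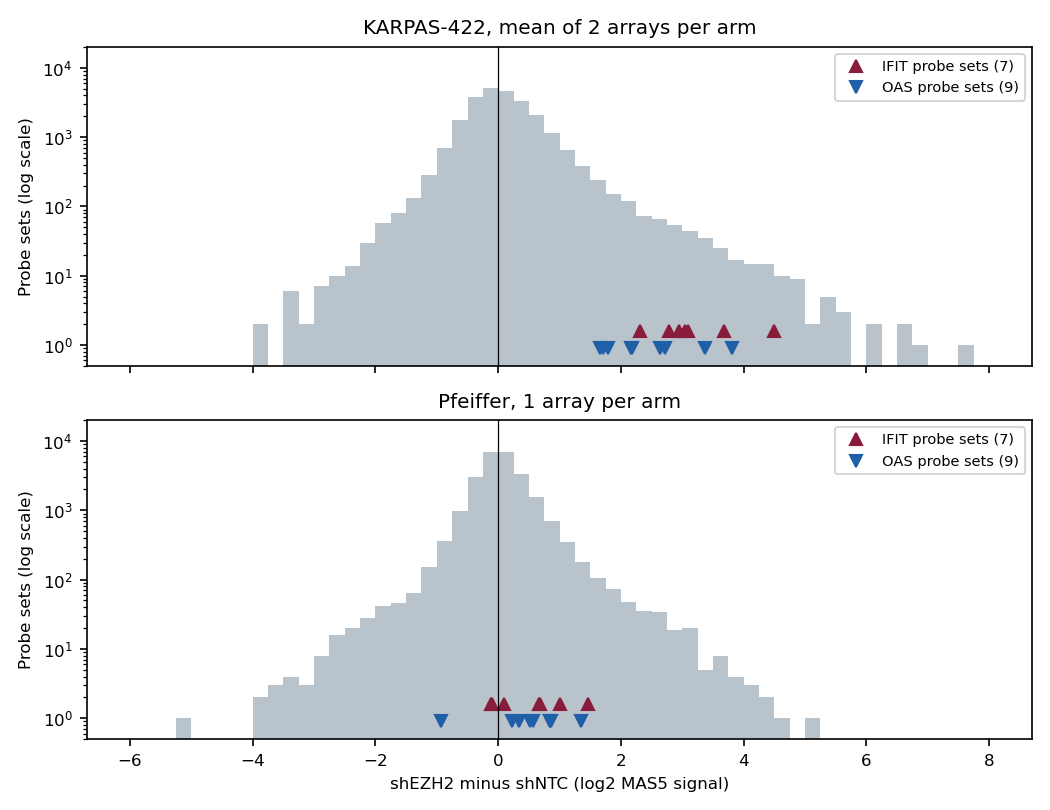
The histograms give the number of kept probe sets (log axis) by their shEZH2 minus shNTC difference in log2 MAS5 signal, for KARPAS-422 above and Pfeiffer below, and triangles mark the 7 IFIT and 9 OAS probe sets. In KARPAS-422 the members lie between 1.67 and 4.49, and in Pfeiffer between -0.93 and 1.46.

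In Pfeiffer the members stood higher in shEZH2 on most probe sets, by less than in KARPAS-422. With 1 array per arm no test was made of this line alone. The difference was above 0 on 13 of 16 probe sets, where 53.7% of all kept probe sets were above 0, and its median was 0.62 over the members and 0.03 over all kept probe sets. It passed 1 log2 unit on 3 probe sets, both of IFIT2 and 202869_at of OAS1, and no probe set lay that far lower, against 3.53% of kept probe sets higher and 1.55% lower. On 11 probe sets the shEZH2 signal was higher by more than both KARPAS-422 replicate gaps of the same probe set, as it was for 21.7% of kept probe sets, and on 2 (IFIT5 203595_s_at and OAS3 232666_at) it was lower by more than them, against 17.3%. These shares are not a like comparison. The gaps come from KARPAS-422, where most members were brighter than in Pfeiffer, and MAS5 spreads dim signals widely. Median gaps were 0.07 in shEZH2 and 0.08 in shNTC over the members, and 0.18 and 0.19 over all kept probe sets. For comparison, 2.02% and 2.47% of kept probe sets differed past 1 log2 unit, in the 2 directions, between the KARPAS-422 shEZH2 replicates, and 2.94% and 3.5% between the shNTC replicates, with 0 of the 16 member probe sets among either.

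**Figure D3:**
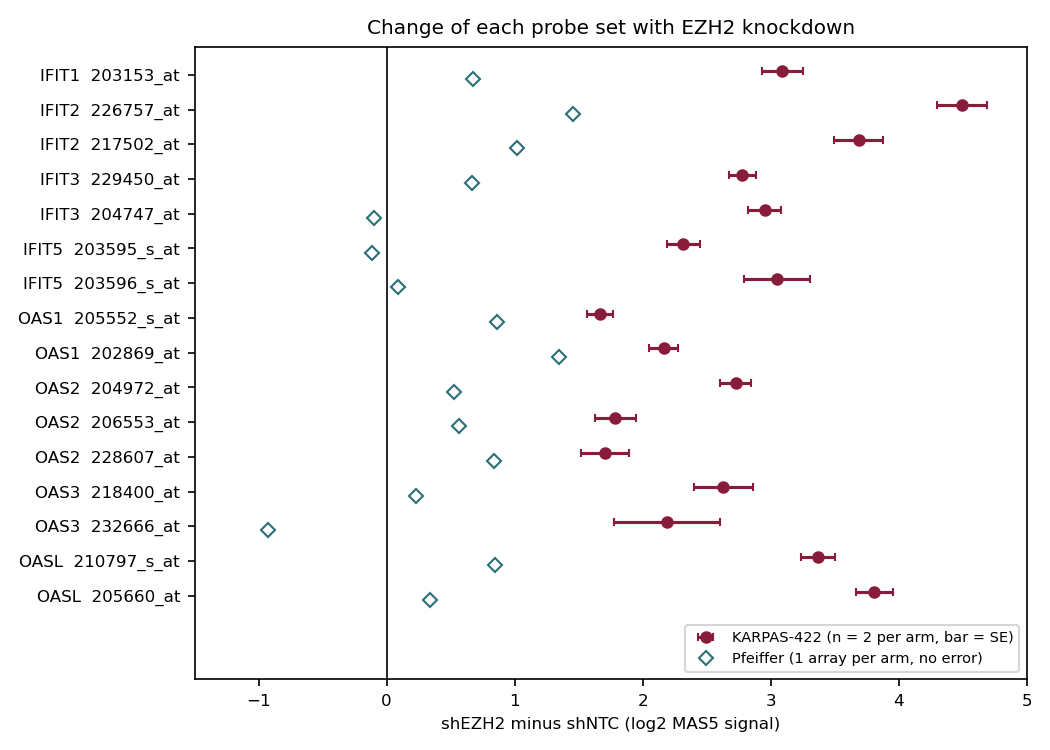
Each row is 1 probe set and the horizontal axis its shEZH2 minus shNTC difference in log2 MAS5 signal, with filled circles and standard errors for KARPAS-422 (2 arrays per arm) and open diamonds without error for Pfeiffer (1 array per arm). Every KARPAS-422 circle lies to the right of the Pfeiffer diamond of its row.

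The change itself was compared between lines as the KARPAS-422 change minus the Pfeiffer change, on the assumption that a lone Pfeiffer array varies like a KARPAS-422 one. It was called on 11 of 16 probe sets, against 0.941% of kept probe sets in this direction and 0.282% in the other, and in 7 of 8 genes by their brightest probe set. Among those 11 it ran from 2.11 for IFIT3 229450_at to 3.47 for OASL 205660_at (adjusted p between 0.00531 and 0.0461). OAS1 was the gene without a call: its differences between lines were 0.80 (95% interval 0.37 to 1.23, adjusted p = 0.102) and 0.82 (0.36 to 1.27, adjusted p = 0.116). OAS2 was called on 204972_at (2.20, adjusted p = 0.00804) and not on 206553_at (1.22, 0.56 to 1.88, adjusted p = 0.103) or 228607_at (0.87, 0.12 to 1.62, adjusted p = 0.255). OAS3 218400_at was called at 2.40 (adjusted p = 0.0461), close to the threshold, and not with quantile normalization, cyclic loess, no filter or no intensity trend (adjusted p between 0.0531 and 0.217), while 232666_at at 3.12 was not (adjusted p = 0.105). Without KARPAS-422 shEZH2 replicate 1 or without replicate 2, 0 of the 16 were called by limma, 15 of 16 had an unadjusted p under 0.05 in each case, and 0% of all probe sets were called.

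Over both lines, with the line as a term in the model and 3 arrays per arm, 11 of 16 probe sets were called higher, against 3.1% of kept probe sets higher and 1.75% lower. The estimates ran from 1.15 to 3.48. OAS1 202869_at had the lowest adjusted p (1.89 ± 0.17, SE, adjusted p = 0.00973), and IFIT2 226757_at the largest estimate (3.48 ± 0.54, SE, adjusted p = 0.0261). The genes not called by their brightest probe set were IFIT5 (1.51, adjusted p = 0.0738) and OAS3 (1.83, adjusted p = 0.0557). Leaving out any 1 KARPAS-422 array left 0 of 16 called by limma, with 15 of 16 at an unadjusted p under 0.05 and 0% of all probe sets called each time. With the KARPAS-422 replicate number as a block, 1 of 16 was called.

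Under the control hairpin the lines differed in these genes. KARPAS-422 shNTC stood above Pfeiffer shNTC on 14 of 16 probe sets, by 1.05 to 6.68 log2 units, and below it on both IFIT5 probe sets (limma, adjusted p under the threshold for each), where 20.4% of kept probe sets were called higher and 21.7% lower. The widest difference was that of IFIT1 (6.68 ± 0.19, SE, adjusted p = 9.72e-07), which rests on a dim Pfeiffer signal and was 3.69 with 64 added to the linear signals. OAS3 218400_at differed by 4.29 (2.61 with 64 added), IFIT3 229450_at by 4.13 and the OAS1 probe sets by 3.93 and 4.01. IFIT5 ran the other way, by -1.24 ± 0.16 (adjusted p = 8.53e-04) and -2.13 ± 0.31 (adjusted p = 0.00158). This test too takes the lone Pfeiffer array to vary like those of KARPAS-422.

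Ordered by group mean, 12 of 16 probe sets ran from KARPAS-422 shEZH2 through KARPAS-422 shNTC and Pfeiffer shEZH2 down to Pfeiffer shNTC. IFIT3 204747_at and OAS3 232666_at had the Pfeiffer arms exchanged, and both IFIT5 probe sets had KARPAS-422 shNTC lowest. On 13 probe sets both KARPAS-422 shNTC arrays lay above both Pfeiffer arrays, on IFIT5 below both, and on IFIT2 217502_at the shNTC arrays lay on either side of Pfeiffer shEZH2. Neighbouring Pfeiffer arms in this order have no spread of their own.

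Across the 6 arrays the pattern of each gene, by its brightest probe set, was set against the mean pattern of the 8. Pearson's r was 1.00 for OAS2, 0.995 for IFIT3, 0.987 for OAS3, 0.978 for OASL and IFIT1, 0.977 for OAS1 and 0.946 for IFIT2, and 0.496 for IFIT5. These are descriptions over 6 arrays of 4 groups, and each gene is part of the mean it is set against. Of 2905 other genes whose signal ranged over at least 2 log2 units, 31 had r above 0.99 with that mean. The most alike were DDX60 (r = 0.999), SNN (0.999), DDX60L (0.998), CYBB (0.998) and ZNF594-DT (0.996). Their KARPAS-422 differences were 2.10, 1.11, 2.27, 1.58 and 1.66 in the same order, a direction that the choice by likeness fixes, so no test is given. ZNF594-DT also passed the filter only through the KARPAS-422 shEZH2 arrays.

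The rest of the interferon pathway was described by 8 lists with 78 genes measured past the filter. IFNB1, DHX58 and ZBP1 passed the filter only through the KARPAS-422 shEZH2 arrays, so they had to differ, and their values are a description. Of the other 75, 49 rose in KARPAS-422 and 3 fell, where 12.5% of 13036 genes rose and 11.6% fell; with those 3 genes it was 52 of 78. In Pfeiffer the list medians lay between -0.15 and 0.19.

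Among ligands and receptors other than IFNB1, 4 of 6 kept genes rose, with a median of 0.58, and 11 further genes, all for interferon ligands, were not past the filter. IFNB1, the gene of interferon beta, had 8.97 and 9.64 in KARPAS-422 shEZH2 against 1.92 and 3.61 in shNTC, and 2.35 in Pfeiffer shEZH2 against 2.93 in shNTC. Its signal stood above the overall median in KARPAS-422 shEZH2 alone. The KARPAS-422 arms were 6.54 apart, a size that is uncertain since shNTC was dim. IFNLR1, a receptor chain for lambda interferons, differed by 4.35 (adjusted p = 0.00420). Its KARPAS-422 shNTC signals were dim, at 3.27 and 5.14, and alternatives gave differences between 2.36 and 5.28. IL10RB, its partner chain, differed by 0.86 (adjusted p = 0.0101). IFNAR1, a chain of the receptor for alpha and beta interferons, differed by 0.66 (adjusted p = 0.0302), with its other probe sets between -0.13 and 1.00. Without the intensity trend the calls of IFNLR1, IL10RB and IFNAR1 were lost (limma adjusted p = 0.0607, 0.0804 and 0.0964). Without KARPAS-422 shEZH2 replicate 1 there were 2 calls in this list with IFNB1 counted (IFNAR1 and IL10RB among those lost), without shEZH2 replicate 2 there was 1, and without shNTC replicate 1 there were 3, against 5 with all arrays.

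Of the JAK, STAT and IRF genes 6 of 11 rose and none fell, with a median of 0.72. The 4 largest were transcription factors. IRF1 rose by 1.85, with its other kept probe set at 3.36, IRF7, which amplifies interferon expression, by 1.76, and IRF2 by 0.96. IRF9, the DNA-binding part of the interferon-stimulated factor complex, rose by 0.94. Without the intensity trend the KARPAS-422 calls of IRF1, IRF2 and IRF9 were lost (limma adjusted p = 0.0503, 0.0667 and 0.0759). IRF1, IRF7 and IRF9 were also called over both lines (1.44, 1.41 and 0.84), calls that leaving out any 1 KARPAS-422 array ended. IRF2 was not called without KARPAS-422 shEZH2 replicate 2 (adjusted p = 0.0585).

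Among RNA and DNA sensors and their adaptors other than DHX58 and ZBP1, 5 of 13 rose and none fell, with a median of 0.17. IFIH1, the sensor of long double-stranded RNA also called MDA5, had 10.51 and 10.70 in KARPAS-422 shEZH2 against 4.56 and 5.52 in shNTC, and 9.51 in Pfeiffer shEZH2 against 9.18 in shNTC. Like IFIT5 it was higher in Pfeiffer than in KARPAS-422 shNTC, and it changed little in Pfeiffer. It rose in KARPAS-422 by 5.57 (SE 0.30, n = 2 per arm) with an adjusted p of 1.67e-04, with its 2 other probe sets at 4.31 and 4.34. ZBP1, a sensor of left-handed nucleic acids, was 4.93 and DHX58, a relative of IFIH1, 3.86 apart between the arms. TLR7, an endosomal receptor of single-stranded RNA, rose by 3.40, a call lost without KARPAS-422 shEZH2 replicate 1 or 2. Without replicate 1 the list had 4 calls with DHX58 and ZBP1 counted, against 7 with all arrays.

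Of the genes of the oligoadenylate pathway, both that were measured fell. ABCE1, which recycles ribosomes, fell by 0.60 ± 0.07 (SE, n = 2 per arm, adjusted p = 0.00323), a call lost without the intensity trend (adjusted p = 0.0725). PDE12, a nuclease that degrades oligoadenylates, fell by 0.42 (adjusted p = 0.0274), with its other probe sets between -0.47 and 0.49, and its call was lost whichever KARPAS-422 array was left out.

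Of 4 genes of cap methylation and IFIT partners, CMTR1 and CMTR2, the enzymes that methylate the first and second nucleotide of the mRNA cap, each rose by 0.72. The translation factor subunit EIF3E fell by 0.40 (not called after cyclic loess, -0.11, adjusted p = 0.219), and EIF3C was 0.84 apart without a call (adjusted p = 0.198). Leaving out KARPAS-422 shEZH2 replicate 2 ended the call of CMTR2 (adjusted p = 0.0731).

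Among 5 negative regulators USP18, which blocks the interferon receptor, rose by 4.07, and SOCS1, an inhibitor of JAK kinases, by 2.84. SOCS3 (-0.40), PIAS1 (0.24) and PTPN6 (-0.33) were not called by their brightest probe sets. The other kept probe sets were at 0.73 and 3.82 for SOCS1, -2.16 and 0.33 for SOCS3, and 0.11 and 0.68 for PIAS1. The size for SOCS1 and the direction for SOCS3 thus depend on the probe set. Of 6 other effectors that respond to double-stranded RNA 4 rose, with a median of 1.21: SAMD9L by 3.16, ZNFX1 by 1.37, EIF2AK2, the kinase PKR, by 1.26 and SAMD9 by 1.16. ADAR and PNPT1, at 0.27 and 0.19, were not called.

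Of 28 other interferon-stimulated genes 26 rose and none fell, with a median of 1.45, which is below the members' median by gene of 2.75. The largest were IFI27 (5.68), RSAD2, the antiviral enzyme viperin (5.10), XAF1 (4.28), a gene linked to cell death, and IFI44L (3.89). ISG15 (0.33, adjusted p = 0.0533) and LY6E (0.48) were not called. In Pfeiffer 3 genes of this list were past 1 log2 unit higher in shEZH2 and 2 lower, against 3.23% and 1.48% of all genes past the filter. XAF1 was among the lower, at -1.77, and IFI27 and IFI44L among the higher, at 1.51 and 1.38. Each of these named genes lay below the overall median signal on both Pfeiffer arrays. Signals in shEZH2 against shNTC were 3.20 against 4.97 for XAF1, 6.18 against 4.67 for IFI27, and 3.78 against 2.41 for IFI44L. MAS5 spreads dim signals widely, so the size and direction of these differences are uncertain.

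**Figure D4:**
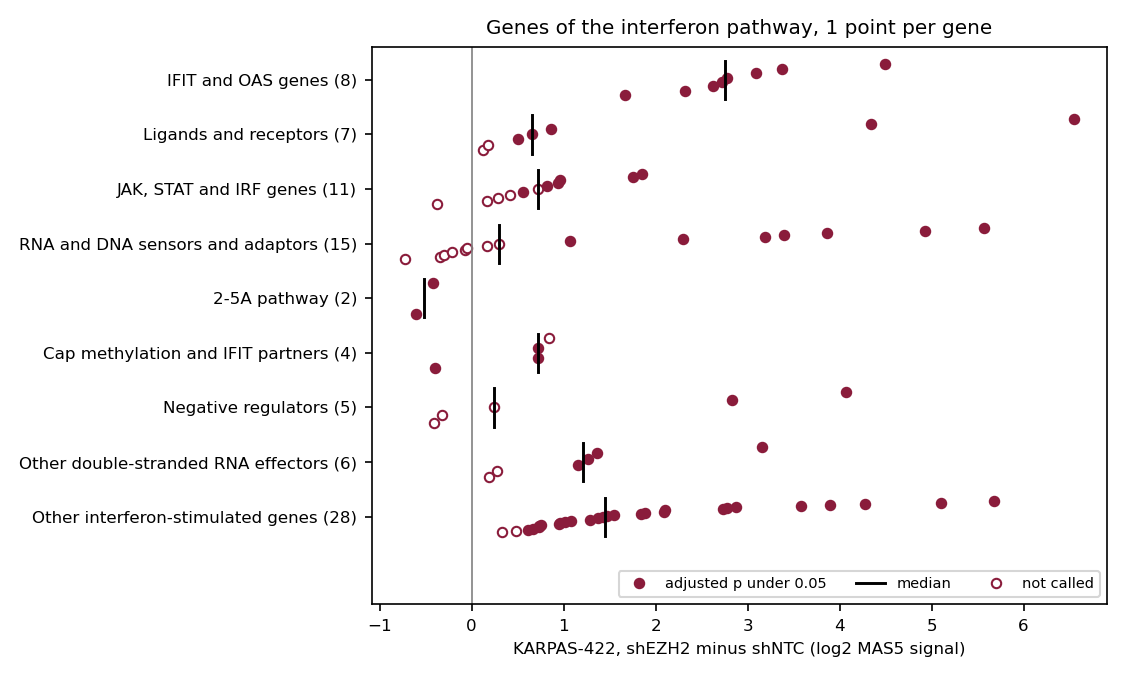
Each point is 1 gene, placed by its shEZH2 minus shNTC difference in KARPAS-422 (log2 MAS5 signal, brightest probe set), with lists down the page and the number of genes in brackets; filled points have an adjusted p under 0.05, and vertical bars are list medians. The 8 IFIT and OAS genes are all filled with a median of 2.75, and the medians of the other lists run from -0.51 to 1.45. IFNB1, DHX58 and ZBP1 are drawn as filled points, but passed the filter only through the KARPAS-422 shEZH2 arrays and had to differ.

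The members lie in 3 places, the IFIT cluster on chromosome 10, OAS1 to OAS3 on chromosome 12, and OASL further along chromosome 12, and up to 3 protein-coding genes with a probe set were taken on each side of each. Beside the IFIT cluster LIPA, the lysosomal acid lipase, was higher by 1.17 ± 0.10 (SE, n = 2 per arm, adjusted p = 9.10e-04) in KARPAS-422. FAS, a death receptor, had 11.96 and 11.91 in KARPAS-422 shEZH2 against 12.11 and 12.14 in shNTC (-0.19, adjusted p = 0.186), and 10.07 in Pfeiffer shEZH2 against 8.56 in shNTC. It was thus higher with knockdown in Pfeiffer, by 1.51, and the difference between lines was called in the direction opposite to that of the members (-1.70, adjusted p = 0.00743). CH25H was not past the filter, and PANK1, KIF20B and HTR7 were not called, at -0.11, -0.06 and -0.82.

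Around OAS1 to OAS3, 0 of 6 neighbours were called in KARPAS-422, with differences between -0.49 for CFAP73 and 0.16 for DTX1. Of all 13036 genes, 12.5% were called higher and 11.6% lower, so a count over 6 genes cannot tell neighbours from other genes. Around OASL 1 of 6 was called, UNC119B, which fell by 0.40 (adjusted p = 0.0378) and lost its call whichever KARPAS-422 array was left out. P2RX7 differed by 1.42 without a call (adjusted p = 0.224).

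**Figure D5:**
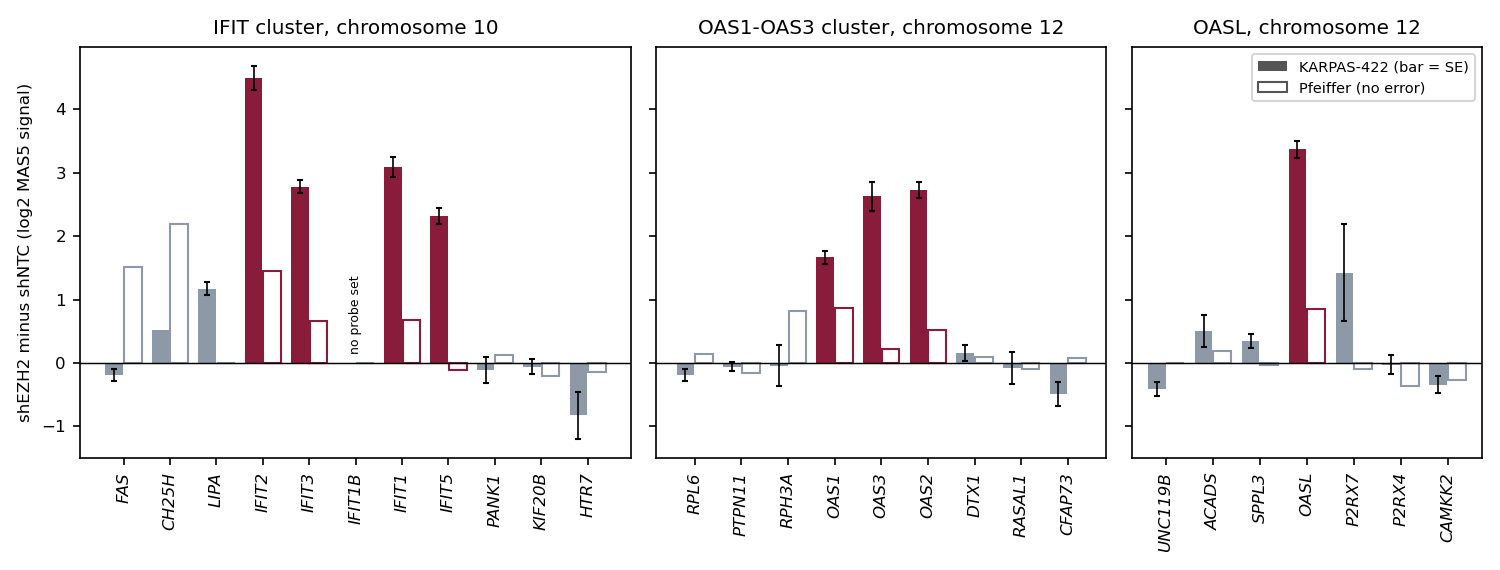
Bars give the shEZH2 minus shNTC difference (log2 MAS5 signal) of each gene in genomic order at the 3 places, filled for KARPAS-422 (error bars are standard errors) and open for Pfeiffer, with members in red and neighbours in grey. Members in KARPAS-422 reach 1.67 to 4.49; CH25H was not past the filter and has no error bar, and IFIT1B was not analysed here.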

How the data were processed

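Total RNA was measured on 6 arrays, 1 per sample. Per the submitters' processing notes the authors used MAS5, named without a version, a method that works array by array. The deposited values were read as log2 signals, since 2 to the power of each value gave the same 2% trimmed mean on all 6 arrays. The probe annotation names the array as Affymetrix HG-U133 Plus 2.0. Of 54675 probe sets it named a single gene for 41091, more than 1 gene for 1801 and no gene for 11721, and 62 were controls. Gene IDs of 41037 matched a RefSeq table (GRCh38.p14), and 0 symbols changed. Detection calls and scan dates were not used here, so no probe set was marked as below background and no batch could be tested. The number of arrays limits the precision.

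Probe sets needed 2 or more of the 6 arrays above the overall median signal (6.21), and 25186 passed. No pseudocount was added. All tests were two-sided and came from lmFit and trended eBayes of limma 3.58.1 (R 4.3.3); p was adjusted by Benjamini-Hochberg over all 25186, with a threshold of 0.05, and each adjusted p is limma's. A model of 4 groups gave 2 residual and 5.08 prior degrees of freedom, with Pfeiffer groups adding none. The brightest probe set by mean decided the call of a gene. The steps were tested on simulated data with noise drawn from the spread that limma itself had estimated. That noise was chosen after a first version, with each probe set's own spread, recovered few changed genes. The simulation thus checks the steps and not the calls on the real arrays. Replicate numbers did not pair the KARPAS-422 arrays (correlation of same-numbered deviations 0.0185 over 2 pairs), so no block was used.

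Members, lists, tests and alternatives were chosen with earlier results of these data known. Named were all members and EZH2, per list up to 4 called genes per direction with the largest KARPAS-422 difference (all where a list had 5 or fewer), up to 3 protein-coding neighbours per side, and the 5 genes most like the members' mean. ADAR, PNPT1, ISG15 and LY6E were named as the uncalled genes of their lists after their values were seen. Alternatives covered scaling (quantile, median centring, cyclic loess), the filter, 16 or 64 added to linear signals, no trend, 1 probe set per gene, leaving out shared probe sets (ending _x_at or _s_at), a replicate block, only KARPAS-422 arrays, and leaving out each KARPAS-422 array; running them on the pathway lists was decided after seeing the data. Proteins were not used here.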

Additional observations from a re-analysis of the deposited data

Results flagged for a closer look

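Members and related genes are given here where the KARPAS-422 change and the Pfeiffer change differed by limma's test of that difference (KARPAS-422 change minus Pfeiffer change, log2 MAS5 signal, adjusted p under 0.05). Among IFIT probe sets it was 2.42 for IFIT1, 3.04 and 2.67 for IFIT2, 2.11 and 3.06 for IFIT3, and 2.43 and 2.96 for IFIT5. Among OAS probe sets it was 2.20 for OAS2, 2.40 for OAS3, and 2.52 and 3.47 for OASL. Of the sensors it was 5.24 for IFIH1 and 5.20 for ZBP1, which passed the filter only through the KARPAS-422 shEZH2 arrays and had to be high there, and of the negative regulators 3.94 for USP18 and 2.56 for SOCS1. It was 1.58 for EIF2AK2, 0.95 for SAMD9 and 2.39 for SAMD9L among effectors of double-stranded RNA. Among other interferon-stimulated genes it was 5.10 for RSAD2, 4.17 for IFI27, 2.51 for IFI44L and 6.05 for XAF1. Of the 28 kept genes of that last list, 13 were called in this direction. Except for the negative regulators, list genes were named for large KARPAS-422 differences, a choice that itself raises these values. Of the neighbours, LIPA had 1.18 and FAS -1.70, the one value below 0. Over all kept probe sets, 0.941% were called above 0 and 0.282% below it. The 24 mix members with genes chosen in other ways, so their number is not a share to set beside these. All 24 were lost without KARPAS-422 shEZH2 replicate 1 or 2.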

How the results depend on the processing

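Member values kept their sign in every called comparison under every alternative run. In KARPAS-422, 256 of 258 alternative values kept the call, and the members called were 15 or 16 of 16 on leaving out 1 array. For the difference between lines 0 to 11 of 16 were called on leaving out 1 array, over both lines 0 each time, and between the shNTC arms 13 to 14. Of the pathway genes, 43 to 51 rose and 2 fell on leaving out 1 array. Without the intensity trend 0 of 16 members were called for the difference between lines (16 of 16 at an unadjusted p under 0.05) and 0 over both lines (15 of 16), and 31 pathway genes rose and 0 fell. With no filter 8 were called for the difference between lines. Over both lines 5 were called with no filter and 1 with the replicate block, under which 5 pathway genes fell. With cyclic loess, or without shared probe sets, 1 pathway gene fell. The pathway counts of this paragraph include IFNB1, DHX58 and ZBP1 wherever these genes were kept. They passed the main filter only through the KARPAS-422 shEZH2 arrays, so they had to differ. With 1 probe set per gene the calls were 8 of 8 in KARPAS-422, 7 between lines, 6 over both lines, and 7 higher and 1 lower between the shNTC arms, by construction. Without shared probe sets 0 members were lower there, since both IFIT5 probe sets are of that kind. In Pfeiffer 0 members were past 1 log2 unit with 64 added, and 1 (OAS3 232666_at) was lower past it with quantile normalization, median centring or cyclic loess. Scaling moved the median of the shNTC comparison from -0.01 to 0.18 at most. Of all kept probe sets, alternatives called 3.43% to 15% higher and 0.449% to 12.3% lower in KARPAS-422, 0% to 1.65% and 0% to 0.794% for the difference between lines, 0% to 5.28% and 0% to 5.17% over both lines, and 11.5% to 27.5% and 12.6% to 23.5% between the shNTC arms. In Pfeiffer 0.695% to 10.1% were past 1 log2 unit higher and 0.218% to 7.04% lower. Where no construction is named, the cause was not tested. MAS5 spreads dim signals widely, so sizes at dim probe sets are uncertain.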
